A study of Mus musculus with 8 samples.

Results

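The remote H3K56ac peaks of muscle stem cells (MuSCs) are the autosomal intervals of the merged peak list that lie more than 100 kb from every transcription start site (TSS), the first base of an annotated transcript. The TSSs were those of all GENCODE vM21 transcripts on the mouse build mm10 (GRCm38), coding or not, and distance was counted from the nearest edge of the peak. Of 105600 peaks in the list, 103492 were autosomal, and 2606 of these were remote, which is 2.52% of the autosomal peaks (Wilson 95% confidence interval 2.42 to 2.62%). The 2606 remote peaks fell into 1475 outside genes (56.6%, 54.7 to 58.5%), 1062 inside introns (40.8%, 38.9 to 42.7%) and 69 that touched an annotated exon (2.65%, 2.10 to 3.34%). Intervals of this kind cover counting error only, because neighbouring peaks share libraries and chromatin.

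The study profiled acetylation of histone H3 at lysine 56 by chromatin immunoprecipitation and sequencing in freshly isolated MuSCs of adult male C57BL/6 mice, to map the mark and the effect of losing the deacetylase SIRT6. The paper calls the Control MuSCs wild type, while its supplement shows Cre-negative animals with floxed Sirt6 as controls of Sirt6mKO mice. In Sirt6mKO mice Cre expressed from the Pax7 locus (Pax7-ICN-Cre) removed floxed exons of Sirt6 from the skeletal muscle lineage. Fibres as well as MuSCs therefore lack the enzyme. Cells negative for Sca1, CD45 and CD31 were sorted as Integrin-a7+ and CD34+, by GFP of Pax7-zsGreen mice or by YFP of Pax7-ICN-Cre/ROSA-YFP mice. Which gate served each library is not given in the sources used here. Each genotype contributed 2 H3K56ac libraries and 2 input libraries, in which chromatin was sequenced without immunoprecipitation. The list merges libraries and names no genotype, replicate or peak height, so Sirt6mKO and Control were not compared here. Every value below describes the position, width or sequence of a merged interval. The paper reports more H3K56ac peaks in Sirt6mKO than in control MuSCs, many of the new ones in distal intergenic regions. Remote peaks present in a single genotype could not be told from those present in both, so their number need not hold for Control MuSCs. All 20 muscle stem cell markers examined, among them Pax7, had a peak within 3 kb of a TSS, but so did 5 of 5 myofibre, 4 of 4 glial, 4 of 5 fibro-adipogenic, 3 of 5 endothelial, 2 of 5 haematopoietic and 2 of 4 tendon markers, beside 69.3% of all autosomal coding genes. A promoter peak was thus found at some markers of every list, at a share below that of all coding genes for endothelial, haematopoietic and tendon markers. Since all myofibre and glial markers also had one, these short lists do not tell the sorted cells from other muscle-resident cells.

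Lysine 56 of histone H3 lies where DNA enters and leaves the nucleosome, and its acetylation is found at active promoters and enhancers. Enhancers can act over long distances, from introns of the gene they regulate, from introns of a neighbouring gene or from stretches without genes. The gene closest to an enhancer is often, but not always, the one it acts on, so the host and nearest genes below locate the peaks and name no target.

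Sequence of 6 remote peaks is shown to place the extremes that the results return to, which are the most distant and the widest peak outside genes and inside introns, and the widest intronic peak of Rora and of Nfib. Each line gives the central 200 bases of the peak on the plus strand of GRCm38 from RefSeq, and the centre of a wide interval need not be its summit. Capitals mark matches on either strand to 1 of 6 motifs, namely the MyoD-type E-box CAGCTG, the AP-1 site TGANTCA, the TEAD site GGAATG, the RUNX site TGTGGT, the NFI core TTGGCA and the CTCF core AGNGGGC.
most distant outside genes, chr1:114672871-114673070: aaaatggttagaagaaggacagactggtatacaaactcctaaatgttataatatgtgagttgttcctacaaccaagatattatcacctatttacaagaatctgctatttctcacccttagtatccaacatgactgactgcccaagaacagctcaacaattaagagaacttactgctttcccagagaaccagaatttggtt
most distant intronic, in Npas3, chr12:53722166-53722365: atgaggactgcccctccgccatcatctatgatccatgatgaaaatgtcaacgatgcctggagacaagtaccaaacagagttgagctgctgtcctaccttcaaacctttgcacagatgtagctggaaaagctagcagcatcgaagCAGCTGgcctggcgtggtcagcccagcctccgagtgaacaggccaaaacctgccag
widest outside genes, towards N6amt1, chr16:87240210-87240409: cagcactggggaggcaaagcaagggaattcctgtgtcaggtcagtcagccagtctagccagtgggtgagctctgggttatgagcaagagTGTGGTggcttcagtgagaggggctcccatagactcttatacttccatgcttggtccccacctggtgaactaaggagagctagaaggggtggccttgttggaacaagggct
widest intronic, in Rad51b, chr12:79538994-79539193: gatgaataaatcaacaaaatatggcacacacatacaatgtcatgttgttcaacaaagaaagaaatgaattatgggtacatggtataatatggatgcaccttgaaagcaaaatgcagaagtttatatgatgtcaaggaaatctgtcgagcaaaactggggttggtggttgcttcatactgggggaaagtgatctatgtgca
widest in Rora, chr9:68772732-68772931: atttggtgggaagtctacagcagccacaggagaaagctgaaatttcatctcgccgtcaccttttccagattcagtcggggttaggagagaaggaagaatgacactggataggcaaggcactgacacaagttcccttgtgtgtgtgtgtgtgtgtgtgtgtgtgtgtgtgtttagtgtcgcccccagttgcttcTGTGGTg
widest intronic in Nfib, chr4:82301303-82301502: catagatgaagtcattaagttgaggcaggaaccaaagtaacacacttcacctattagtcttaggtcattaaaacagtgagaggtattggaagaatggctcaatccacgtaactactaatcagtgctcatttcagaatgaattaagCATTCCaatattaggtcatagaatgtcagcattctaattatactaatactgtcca
In these windows the Npas3 peak held the E-box, the N6amt1 and Rora peaks a RUNX site and the Nfib peak a TEAD site on the minus strand. The most distant peak and the Rad51b peak held no match. The GC content of the 6 windows ran from 35.5% in the Nfib peak to 55.0% in the N6amt1 peak.

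Sequence more than 100 kb from a TSS carried few peaks. It made up 223.0 Mb, or 9.31% of the autosomal sequence outside assembly gaps, and held 11.7 peaks per Mb, while the remaining 2173 Mb held 46.4 per Mb, so the remote density was 0.252 of the other. Peaks covered 1.74% of remote sequence and 8.19% of the rest. The remote density was the lower on all 19 autosomes, with a ratio between 0.0829 on chromosome 3 and 0.616 on chromosome 9. Density fell with distance on both sides of 100 kb, from 39.6 peaks per Mb at 10 to 25 kb through 17.8 at 75 to 100 kb and 15.9 at 100 to 120 kb to 9.51 at 150 to 200 kb. It was 10.2 per Mb at 200 to 300 kb and 1.18 per Mb beyond 300 kb, where 19 peaks lay in 16.06 Mb.

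**Figure D1:**
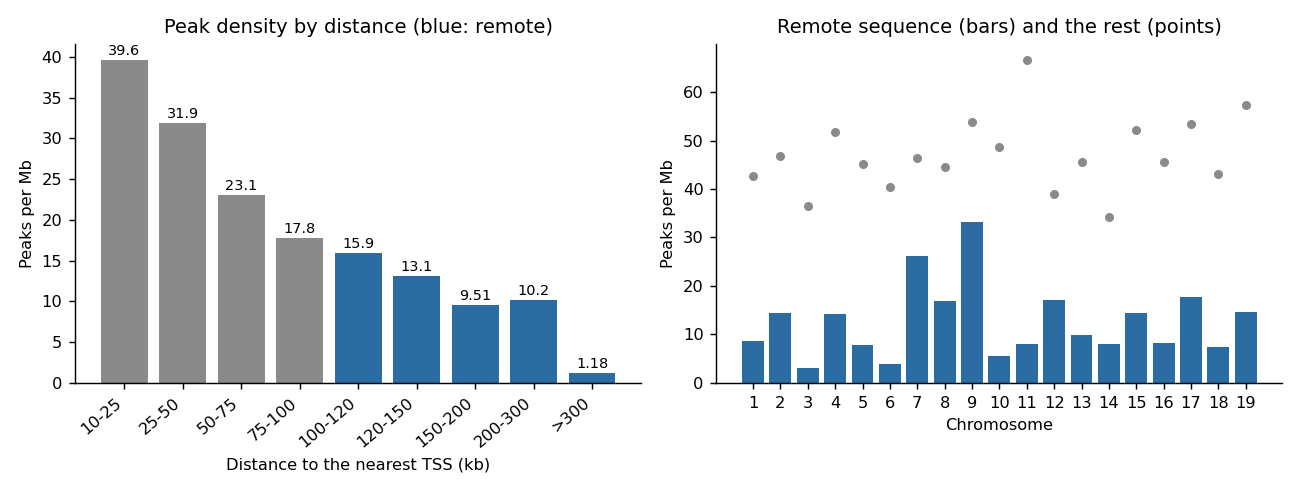
Left, peaks per Mb of autosomal sequence outside assembly gaps by distance to the nearest TSS in kb, with remote bins in blue, falling from 39.6 at 10 to 25 kb to 1.18 beyond 300 kb. Right, remote peaks per Mb of remote sequence on each autosome (bars) and peaks per Mb of the remaining sequence (points), which lie above the bars on all 19 autosomes.

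The distance threshold cut through a continuous range. The remote peaks closest to it were a 475 bp peak outside genes on the Maf side of chromosome 8, 100009 bp from a TSS, and a 764 bp peak in an intron of Arhgap24 at 100035 bp. The closest peak on the other side was 515 bp wide and lay in an intron on chromosome 2, at 99992 bp. Peaks 90 to 100 kb away numbered 676 with a median width of 865.5 bp, and peaks 100 to 110 kb away numbered 539 with a median of 895 bp.

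Remote peaks were spread unevenly over chromosomes. Chromosomes 9, 2, 4 and 8 held 271, 265, 254 and 247 of them, together 39.8% of the remote peaks in 26.5% of the remote sequence, and chromosomes 10, 3 and 6 held 44, 47 and 47. Per Mb of remote sequence the range was 3.02 on chromosome 3 to 33.1 on chromosome 9. A single gene weighed on that upper end, since chromosome 9 had 20.3 per Mb without Rora, and chromosome 12 fell from 17.0 to 8.18 per Mb without Rad51b.

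Most remote peaks sat in a small part of the remote sequence. Cutting the autosomes at 100 kb from each TSS left 1789 separate remote segments with a median length of 76.64 kb, and 426 of them (23.8%) held at least 1 peak. The 1363 segments without a peak made up 70.0% of the remote sequence. The 52 fullest segments held 50% of all remote peaks, and the 10 fullest held 557 peaks (21.4%). Long segments were more often occupied but less dense: 16.1% of segments under 50 kb and 34.8% of those of 400 kb or more held a peak, at 20.5 and 3.14 peaks per Mb. The longest segment, 1243 kb on chromosome 18, held 1 peak, and the longest empty one was 982.9 kb on chromosome 6 between Ankrd7 and the potassium channel gene Kcnd2.

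Peaks inside introns were denser than peaks outside genes. Remote introns made up 55.91 Mb, or 25.1% of remote sequence, and held 19 peaks per Mb, while the 166.3 Mb outside genes held 8.87 per Mb. The intronic density was the higher on 15 of 19 autosomes. Without Rora and Rad51b it was 15.6 per Mb, and the intronic share of remote peaks was 35.9%. The share inside introns was 42.5% (39.5 to 45.7%) at 100 to 120 kb and 38.1% (33.4 to 43.1%) at 200 to 300 kb. Beyond 300 kb 3 of 19 peaks were intronic.

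Intronic remote peaks mostly lay in long introns. Measured between the united exons of the host gene and counted once for each peak, the intron around a peak had a median length of 133 kb with quartiles of 52.0 and 209 kb, and 618 of the 1062 intronic peaks (58.2%) lay in an intron of at least 100 kb. A further 103 (9.70%) lay in an intron under 20 kb, inside a long gene. The share of remote intronic sequence in introns of these lengths was not computed. These shares therefore do not set the peaks apart from the sequence open to them. The host genes numbered 163, of which 151 were protein-coding and held 1027 of the peaks. Within coding hosts the peaks lay at a median of 57.5% of the gene length from its 5′ end, with quartiles of 41.2 and 75.8%. The rule bars the first 100 kb of every gene, so this position follows in part from it. The position of all remote intronic sequence was not computed. Hosting was concentrated, as 29 genes with at least 10 peaks each held 649 (61.1%) and 50 genes held 1 peak each.

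Rora, which encodes a nuclear receptor of the circadian clock and of lipid metabolism, held the most. Its 112 remote peaks all lay in 1 intron of 530.6 kb (chromosome 9, 68664968 to 69195540) and covered 51.9% of the remote part of the gene, the widest being 11.3 kb. They were 51.1% of the 219 peaks that touched Rora. When intervals less than 1 kb apart were joined, 38 intervals remained over this stretch, the longest 40.1 kb.

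Rad51b, a gene of DNA repair by homologous recombination, held 88 remote peaks in 6 introns, with 32 in an intron of 149.2 kb. Another 4 of its remote peaks touched an exon. The remote segment over Rad51b, on chromosome 12 from 79427354 to 79824732, was the most covered of all segments of at least 100 kb, at 70.3%, and joining left 26 intervals with a longest of 90.8 kb. The segment ends 288 kb from the TSS of Zfp36l1, which encodes an RNA-binding protein that destabilises AU-rich mRNAs. The widest remote peak of all, 17204 bp, and the widest intronic one, 16177 bp, were both in Rad51b. The next intronic peaks by width lay in Garem1, an adaptor gene of growth factor signalling (15351 bp), in Rora (11290 bp) and in Arhgap42, a RhoA GTPase-activating protein gene (10821 bp).

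The next hosts were covered less densely. Wwox, an oxidoreductase gene that spans a common fragile site, held 50 peaks, which covered 42.4 kb of its 338.8 kb of remote introns. Clstn2, which encodes the synaptic adhesion protein calsyntenin, held 44 over 26.2% of its remote introns. Setbp1, which encodes a SET-binding nuclear protein, held 29 over 12.7%. Galnt18, a gene of mucin-type O-glycosylation, and Npas3, a neuronal bHLH-PAS transcription factor gene, held 22 each, but they covered 14.9% and 4.64%. Arhgap15, a Rac GTPase-activating protein gene, held 21, Trabd2b, which encodes a protease that inactivates Wnt ligands, held 18, and Dlgap2, a postsynaptic scaffold gene, held 17. Npas3 held the most distant intronic peaks, up to 357 kb from a TSS, as narrow intervals of 618 to 778 bp.

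Host annotation was ambiguous for a few. A further 16 peaks were hosted by Gm20388, a coding model of 4435 kb that contains many other genes, and 15 of these had no other host and lay 101 to 139 kb from the nearest TSS of Banp or Zfpm1, the gene of a GATA cofactor. These genes were named after their values were seen. In all, 15 intronic peaks lay in more than 1 gene.

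Many of the longest genes held no remote peak. Of 386 coding genes with at least 10 kb of remote sequence, 236 had none. Lsamp, Gpc6, Gpc5 and Lrp1b, which encode neuronal adhesion, glypican and lipoprotein receptor proteins, had 909.2, 827.9, 785.6 and 774.1 kb of remote sequence without an intronic peak, and were named after their values were seen. A promoter peak, within 3 kb of any TSS of the gene, was present at 133 of the 150 genes with a remote peak (88.7%, 82.6 to 92.8%) and at 138 of the 236 without (58.5%, 52.1 to 64.6%). The same share over all 20807 autosomal coding genes was 69.3%. Genes with and without a remote peak were not matched for amount of remote sequence or number of TSSs, and the difference was not tested.

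**Figure D2:**
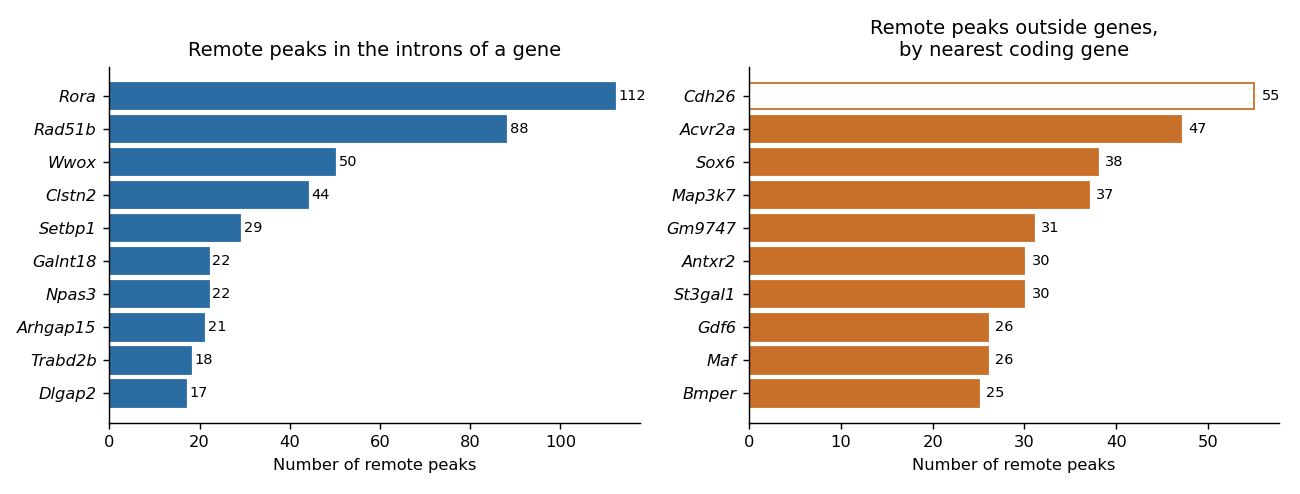
Number of remote peaks for the 10 genes with the most in their introns (left) and for the 10 coding genes nearest by TSS to the most remote peaks outside genes (right). Filled bars mark genes with a promoter peak and the open bar marks Cdh26, which had none. Rora leads on the left with 112 and Cdh26 on the right with 55, and Auts2, which tied with Bmper at 25, is not drawn.

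Peaks outside genes gathered near a limited set of coding genes. The 1475 peaks were nearest to the TSS of 262 coding genes at a median of 247 kb (quartiles 160 and 386 kb), and 240 of them (16.3%) were more than 500 kb from any coding TSS, up to 2220 kb. The 10 leading genes took 345 peaks (23.4%), and 39 genes with at least 10 peaks each took 775 (52.5%). At 82 genes there was 1 peak.

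The leading gene, Cdh26, a cadherin gene, was nearest to 55 peaks at 119 to 453 kb but had no promoter peak. The gene on the other side of the same 55 peaks, Cdh4, which encodes R-cadherin, lay 528 to 861 kb away and had a promoter peak of 3982 bp. Acvr2a, a receptor gene for activin and myostatin, was nearest to 47 peaks, which ran from 104 to 1389 kb and faced Zeb2 on the far side. Sox6, a repressor of slow fibre genes, was nearest to 38 peaks at 144 to 325 kb, and 3 further remote peaks lay within the gene. Map3k7, the gene of the kinase TAK1, was nearest to 37 peaks and the predicted gene Gm9747 to 31.

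Antxr2, an anthrax toxin receptor gene of the extracellular matrix, was nearest to 30 peaks at 116 to 265 kb, and St3gal1, a sialyltransferase gene, to 30 at 228 to 460 kb. Gdf6, a bone morphogenetic protein (BMP) gene, was nearest to 26 peaks, among them the 11750 bp interval that was the second widest outside genes. Maf, a bZIP transcription factor gene, was nearest to 26 peaks at 222 to 348 kb, in the same segment as 41 peaks in 1 intron of Wwox. Bmper, a gene of a secreted BMP-binding protein, was nearest to 25 peaks at 124 to 269 kb. Auts2 was also nearest to 25, and Bmper was placed before it because its peaks covered 52.2 kb against 23.9 kb. Except for Cdh26, each of these 10 genes had a promoter peak.

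The widest remote peak outside genes, 12953 bp on chromosome 16, lay 107 kb from the methyltransferase gene N6amt1. The next after the Gdf6 interval, of 10749, 10326 and 9967 bp, were nearest to the proliferation gene Mki67 at 340 kb, the kinase gene Camk1g at 350 kb and the RNA-binding protein gene Qk at 151 kb. The 5 most distant remote peaks lay together on chromosome 1 between 114671811 and 114726944, at 493 to 546 kb from any TSS. They were 383 to 2418 bp wide, and their nearest coding gene, at 958 to 1011 kb, was Cntnap5a, a neuronal contactin-associated gene without a promoter peak.

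Nearest coding genes had a promoter peak more often than coding genes next to remote sequence without peaks. The share was 210 of 262 (80.2%, 74.9 to 84.5%) against 361 of 601 genes (60.1%, 56.1 to 63.9%) that were nearest to at least 10 kb of remote sequence outside genes but to no peak, and 69.3% over all autosomal coding genes. The intervals do not overlap, but neighbouring genes share chromatin, and no test over replicates was made.

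Developmental transcription factor genes and very large genes, most of them neuronal, were both found at remote peaks. Of 47 listed transcription factor genes that hosted or were nearest to remote sequence, 26 (55.3%, 41.2 to 68.6%) had a remote peak, with 244 peaks in all (9.36% of the remote peaks). The second list holds mainly large neuronal adhesion or synapse genes, but also Wwox, Fhit and Macrod2, which are large and are not of that kind. Of its 59 genes with remote sequence, 26 (44.1%, 32.2 to 56.7%) had a remote peak, with 183 peaks, 50 of them at Wwox. Over all 1105 coding genes with remote sequence the share was 36.1% (33.3 to 39%), which lies inside the interval of the second list. Both lists were chosen with earlier results of these data known, and genes were not matched for their amount of remote sequence. The shares are thus descriptions, and a difference between them was not tested. Few of the cell type markers could have a remote peak, since 1 muscle stem cell marker and 2 endothelial markers had remote sequence and the other marker lists had 0 such genes. Cdh5, the endothelial VE-cadherin gene, was the nearest coding gene to 20 peaks at 186 to 396 kb, although it had no promoter peak, and Itgb1, an integrin gene of the muscle stem cell list, was nearest to 1.

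Among the transcription factor genes, Sox6 had 41 peaks counting those inside the gene. Nfib, a nuclear factor I gene active in muscle development, had 32, of which 11 were intronic, 13 outside the gene and 8 over an exon. Maf had 26, Klf4, a zinc finger pluripotency factor gene, had 23 at 177 to 355 kb, and Sox9, the chondrocyte factor gene, had 19 at 144 to 518 kb. Nfia, the paralogue of Nfib, had 13. Of the list of large genes Wwox had 50, Auts2 had 25 and Gpc5 had 14, and the peaks of Auts2 and Gpc5 were all outside the gene.

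Remote peaks lay close together. Another peak lay within 10 kb of 2239 of them (85.9%, 84.5 to 87.2%) and within 1 kb of 1698 (65.2%, 63.3 to 67.0%), and 131 (5.03%) had no other peak within 50 kb. Peaks 10 to 100 kb from a TSS had a neighbour within 10 kb in 88.9% (88.6 to 89.2%) and none within 50 kb in 1.88%. Remote peaks had a median gap of 369 bp to the closest other peak and peaks 10 to 100 kb from a TSS one of 393 bp, a log2 ratio of -0.09. The remote median was the higher on 10 autosomes and the lower on 9 (exact two-sided sign test over 19 autosomes, p = 1.00). The log2 ratio of single autosomes ran from -1.28 to 3.36, and the remote medians on chromosomes 3 and 6, which held 47 peaks each, were 3509 and 2823 bp. Autosomes share the libraries and are not biological replicates, so these p-values describe only how evenly a difference ran over chromosomes.

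Remote peaks less than 12500 bp apart were joined into series. The series were made of remote peaks only, so these counts do not compare them with other peaks. The 2606 peaks formed 813 series, of which 369 were single peaks, 156 were pairs and 288 had 3 or more peaks. Series of 3 or more held 1925 peaks (73.9%), which was 79.6% of the intronic peaks and 69.6% of those outside genes. Series of 10 or more numbered 46 and held 41.2% of the intronic peaks and 24.7% of those outside genes. Of the 438 intronic peaks in series of 10 or more, 112 lay in Rora and 88 in Rad51b. Neither intronic share was computed without these genes. The median span of series with 3 or more peaks was 14.5 kb.

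The 5 fullest series lay at 3 genes. Rora held the first, with 62 peaks over 164 kb, and the third, with 50 peaks over 158 kb, and peaks covered 50.4 and 59.4% of these spans. Rad51b held the second, with 58 peaks over 259 kb, and the last of the 5, with 34 over 108 kb, covered to 74.7 and 80.1%. The fourth, nearest to Cdh26, had 38 peaks over 92.9 kb and 57.8% covered, and none of it was inside a gene.

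**Figure D3:**
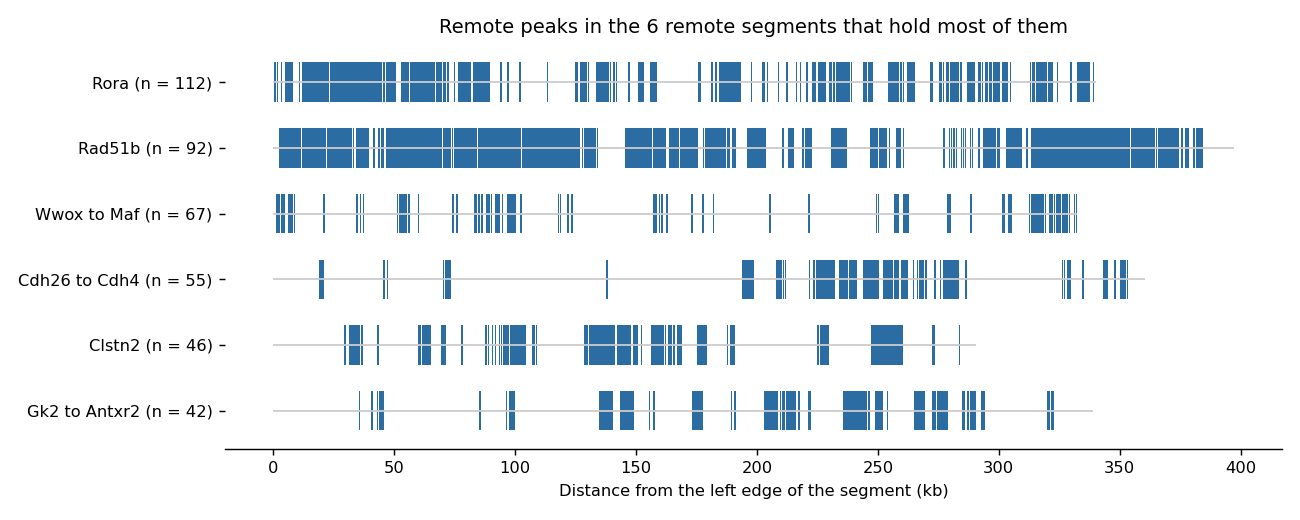
Remote peaks (blue blocks, to scale) in the 6 remote segments that hold most of them, each named by its host gene or by the coding genes on either side, by distance in kb from the left edge of the segment (grey line). Blocks nearly fill long stretches of the Rad51b segment, which is 70.3% covered, and are scattered in the Wwox to Maf segment, at 18.4%.

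Remote peaks had the width of other peaks away from promoters. The median was 883 bp with quartiles of 604.5 and 1586 bp, against 984 bp with quartiles of 630 and 2096 bp for the other 100886 autosomal peaks. Remote peaks were the narrower on 16 of 19 autosomes, by 0.16 on the log2 scale (exact two-sided sign test, p = 0.00443, Benjamini-Hochberg adjusted p = 0.00885 over 4 tests). Widths of 5 kb or more were found in 3.76% of remote peaks and 6.18% of the others. The difference was not found against the 41020 peaks 10 to 100 kb from a TSS, whose median was 889 bp and of which 3.83% reached 5 kb (log2 ratio -0.01, remote higher on 7 of 19 autosomes, exact sign test p = 0.481).

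Inside introns the median width was 880 bp and outside genes 871 bp. The intronic median was the higher on 9 autosomes and the lower on 10 (log2 ratio 0.01, exact sign test p = 1.00), and on single autosomes the log2 ratio ran from -0.73 to 0.70. The 69 peaks over an exon had a median of 1078 bp, and 8 of them touched Nfib exons. A wide interval is more likely to touch an exon, so the width of this class follows in part from its definition. Peaks in series of 10 or more had a median of 961 bp and single peaks one of 867 bp, and the median of single peaks was the lower against series of 3 or more on 12 of 19 autosomes.

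**Figure D4:**
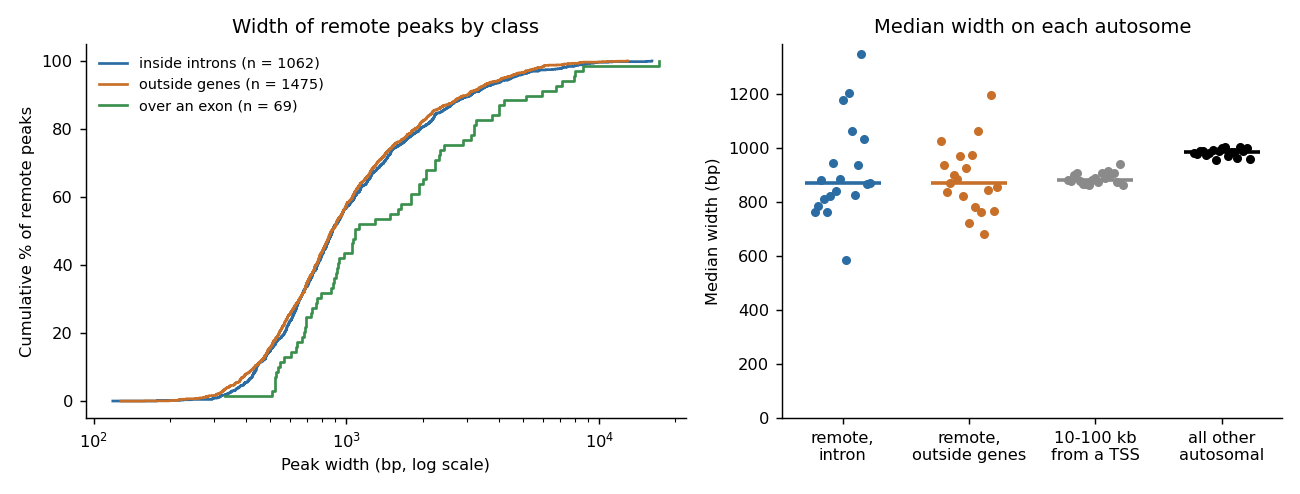
Left, cumulative percentage of remote peaks by width in bp on a log axis, for 1062 peaks inside introns, 1475 outside genes and 69 over an exon. The first pair of curves nearly coincide, with medians of 880 and 871 bp, and the exon curve lies to the right. Right, median width on each of 19 autosomes (points) and the median of these (lines) for remote intronic peaks, remote peaks outside genes, peaks 10 to 100 kb from a TSS and all other autosomal peaks.

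Remote peaks were poorer in G and C. The median GC content of the central 200 bp was 43.5%, against 45.5% for peaks 10 to 100 kb from a TSS, and it was the lower on 19 of 19 autosomes, by 0.50 to 5.00 percentage points (exact two-sided sign test, p = 3.8e-06, the smallest this test can give, adjusted p = 1.5e-05 over 4 tests). Intronic remote peaks had a median of 44.5% and those outside genes 43.0%. Windows of the same length 5 kb outside the edges of remote peaks, where no peak lay, had a median of 42.0%, and such windows beside peaks 10 to 100 kb from a TSS had 44.0%. Both kinds of peak were thus richer in GC than their flanks. The flanks of remote peaks were also the poorer in GC, so the lower content was shared by the peaks and the sequence beside them. Sequence that RefSeq marks as repeats took up 16.0% of the remote windows on average and 28.2% of their flanks. The read alignment kept reads with a single place in the genome, which lowers the chance of a peak in repeats, and its part in this difference was not tested.

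**Figure D5:**
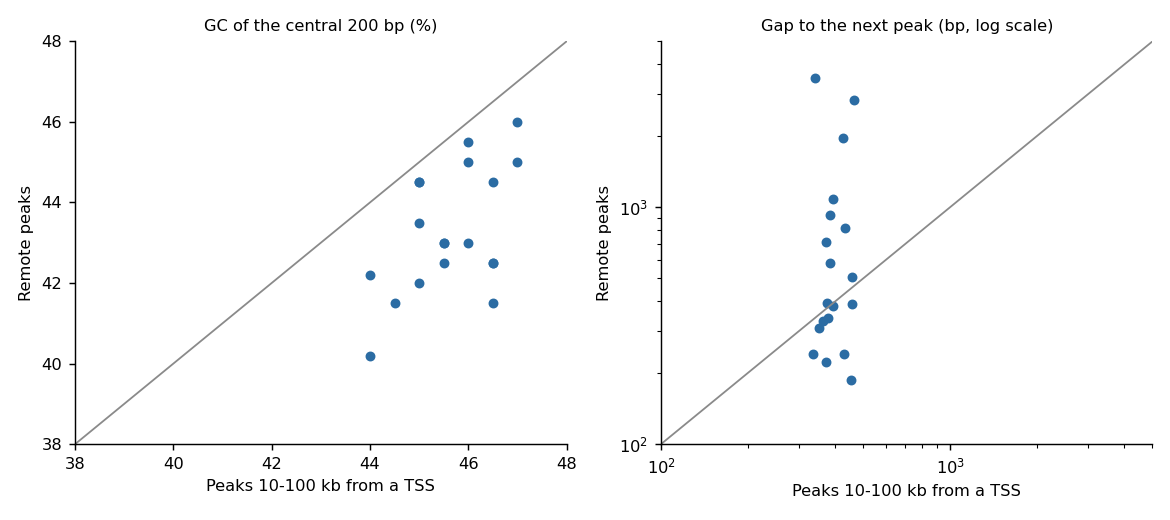
Each point is 1 of 19 autosomes. Left, median GC content in % of the central 200 bp of remote peaks against that of peaks 10 to 100 kb from a TSS, where all points lie below the grey line of equality. Right, median gap to the next peak in bp on log axes, where 10 points lie above the line and 9 below.

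The MyoD-type E-box was more frequent in remote peaks than beside them. CAGCTG, which reads the same on both strands, was in 10.7% (9.61 to 12%) of the 2606 central windows and in 6.74% (5.99 to 7.58%) of the 3841 flanking windows, and the share was the higher in peaks on 18 of 19 autosomes. It was likewise in 12.2% of peaks 10 to 100 kb from a TSS against 8.15% of their own flanks, and in 11.7% of all other autosomal peaks. Remote peaks held it more often than peaks 10 to 100 kb from a TSS on 9 of 19 autosomes. Intronic peaks and peaks outside genes held it in 10.7 and 10.6%.

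The other motifs differed less from the flanks. The AP-1 site was in 6.56% of remote windows and 5.57% of flanks, the NFI core in 12% and 10.6%, the RUNX site in 13.6 and 13.2%, the TEAD site in 12% and 11.6% and the CTCF core in 6.75 and 6.40%. In that order, the share was the higher in remote peaks than in their flanks on 15, 14, 13, 8 and 10 of 19 autosomes. In all other autosomal peaks the shares were 5.95, 11.1, 14.4, 11.0 and 10.4% in the same order. The share of the CTCF core was lower in remote peaks than in peaks 10 to 100 kb from a TSS, at 6.75 against 8.70%, and it was the higher in remote peaks on 3 of 19 autosomes. A match of letters shows no binding, and motif shares move with base composition, which differed between these groups.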

How the data were processed

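H3K56ac and input DNA of Control and Sirt6mKO MuSCs were sequenced as 8 Ion Proton libraries. The authors trimmed reads with Trim Galore, aligned them to mm10 with bowtie keeping uniquely placed reads, removed duplicates with Picard, called peaks with MACS2, removed blacklisted regions and merged overlapping peaks with GenomicRanges. Per the labels' processing notes, FastQC, SAMtools and deepTools were also used. The deposited list holds the start and end of each merged interval and no other measurement. Its score column is 0 in every row, it has 0 columns of values per sample, and the libraries that entered the merge are not stated. The list therefore gives no depth behind an interval and was not split by genotype, and values per library were not analysed here.

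Positions count from 1 on GRCm38. GENCODE vM21 supplied TSSs, genes and exons, and RefSeq GRCm38.p6 the sequence and assembly gaps of at least 100 bp, which no remote peak touched. A peak over any exon was classed as exonic, else within a gene as intronic, else as outside genes. The host was the containing coding gene, the longest if several. Medians per autosome were compared by an exact two-sided sign test over 19 autosomes, adjusted by the Benjamini-Hochberg method over 4 tests. Functions were tested on simulated data. Python 3.11.15, numpy 2.4.6, pandas 2.3.3 and scipy 1.17.1 were used.

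The genes named were the 10 hosts and the 10 nearest coding genes with most peaks, those at the 5 widest and 5 most distant peaks and the 5 fullest series, and up to 10 listed genes, with exceptions marked in the text and genes named as the other neighbour of a segment added after their values were seen. The members and gene lists were chosen with earlier results of these data known. The alternatives were other distance rules, TSS sets, gene bodies, gaps, widths and comparison peaks, and joined intervals.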

Additional observations from a re-analysis of the deposited data

Results flagged for a closer look

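Chromosome X was outside the rule, which takes autosomes only. It held 38 peaks more than 100 kb from every TSS, 27 outside genes and 11 inside introns, with a median width of 585 bp. Their density was 2.42 per Mb of the 15.67 Mb of remote sequence on chromosome X, below that of each autosome. The mice were male, so chromosome X and the autosomes differ in copy number, for which neither density nor width was adjusted. The list gives no value per library.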

How the results depend on the processing

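No paired analysis was possible because the list holds no value per library, and for the same reason no replicate could be left out. The number of remote peaks, 2606, was 14338 with TSSs of protein-coding genes only and 3598 with TSSs of basic transcripts only. It was 9092 with a threshold of 50 kb, 407 with one of 200 kb and 1428 with intervals less than 1 kb apart joined. The share inside introns was 32.2% with coding TSSs only, 37.4% with joined intervals and 35.9% without Rora and Rad51b. The density ratio of 0.252 was 0.212 by covered base pairs and 0.293 with coding TSSs only. The log2 width ratio to other autosomal peaks, -0.16, was -0.01 against peaks 10 to 100 kb from a TSS, -0.02 within peaks outside genes and 0.02 within introns at those distances. That of intronic peaks to peaks outside genes, 0.01, was -0.10 with joined intervals and -0.04 with coding TSSs only, with no test past the threshold. The share with a neighbour within 10 kb was 83.5% for peaks of at least 500 bp, 65.2% for a gap of 1 kb and 95% for 50 kb. Comparisons by class at matched distances and those without Rora and Rad51b were chosen after seeing the data. The lower GC content kept its direction and its side of the threshold under the 4 alternatives tried, between -3.00 and -1.0 percentage points.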
